A study of Mus musculus with 6 samples.

Results

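The transcripts of cytochrome oxidase and ATP synthase subunits were measured in blood platelets of mice carrying a transplanted acute myeloid leukemia (AML) before overt disease, and of transplanted control mice. All genes of the expression table whose symbol begins with Cox4 to Cox8 or with Atp5 were taken, with processed pseudogene symbols left out. This gave 35 of the 14975 genes listed, of which 18 encode cytochrome oxidase subunits and 17 encode ATP synthase subunits. The choice used symbols alone and no expression value. The mitochondrially encoded subunits of both complexes were not analysed here.

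Platelets came from C57BL/6 mice, given as female and 8 to 12 weeks old in the study's methods. The 3 libraries labelled AML, called pre-AML here after the study, came from sub-lethally irradiated recipients of leukemic cells. Those cells had been made by retroviral expression of the fusion oncogene MLL-AF9, followed by IRES-GFP, in hematopoietic stem and progenitor cells, and were passed on in a secondary transplantation. The 3 libraries labelled WT, called control, came from irradiated recipients of normal bone marrow, so both groups had been irradiated and transplanted. Blood was taken 1 week after transplantation in both groups, and platelets were purified by removing CD45+ and Ter119+ cells. Sub-lethal irradiation leaves blood-forming cells of the host in place, and the purification did not separate host from donor platelets. The submitters' design text speaks of 2 replicates and of pools of 3 to 4 mice, whereas 3 samples per group are listed and the methods speak of independent mice. The p-values therefore measure the spread between these libraries, whatever each library holds.

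Cytochrome oxidase is complex IV of the mitochondrial respiratory chain. It passes electrons from cytochrome c to oxygen and pumps protons across the inner membrane. Its catalytic core is encoded by mitochondrial DNA, and the nuclear Cox genes encode the subunits around that core, some of them in tissue-specific isoforms. ATP synthase lets protons flow back and uses the turning of its membrane ring and central stalk to make ATP in the F1 head. Platelets have no nucleus but carry mitochondria, and their transcripts are mostly those packed by the megakaryocyte, the bone marrow cell that sheds them.

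The deposited values are FPKM, fragments per kilobase of transcript scaled to library size, so that levels of genes of unequal length can be compared. Reads recovered from the FPKM values numbered 11936006 to 13876254 in the controls and 13537697 to 17779027 in pre-AML platelets. On the log2 scale pre-AML 3 stood apart from the other libraries along the first principal component, at 41.9 against -12.7 to -2.12, which carried 70.2% of the variance. All 11 platelet markers were above 0 in every library, and their summed level was 89847 to 113710 FPKM in control and 61459 to 92284 FPKM in pre-AML platelets, most of it from the chemokines Pf4 and Ppbp. The 5 listed of 8 erythroid markers, led by Hba-a1 and Hbb-bt, summed to 2350 to 2652 FPKM in control and to 2377 to 2991 FPKM in pre-AML platelets. Within that sum Hba-a1 was wholly higher in pre-AML platelets, at 2023, 1799 and 1721 FPKM against 1200, 1506 and 1310 FPKM in the controls. Hbb-bt had 1409, 1079 and 1011 FPKM in the controls and 940, 1056 and 639 FPKM in pre-AML platelets, with overlapping groups. The 8 neutrophil markers, led by S100a8 and S100a9, summed to at most 3.49 FPKM in any library. The highest of 8 monocyte and macrophage markers was Lyz2. It had 2615, 2384 and 2475 FPKM in the controls and 2483, 2333 and 3093 FPKM in pre-AML 1, 2 and 3. The 7 others, led by Tyrobp, summed to 0.499 to 1.16 FPKM in the controls. In pre-AML 1, 2 and 3 they summed to 4.96, 6.94 and 407 FPKM. The 6 B cell markers, led by Cd74 and Cd79a, summed to 1.38 to 1.93 FPKM in the controls and to 0.881, 20.8 and 249.6 FPKM in pre-AML 1, 2 and 3. The 5 listed of 6 T and NK cell markers, led by Nkg7 and Gzma, summed to 19.0 to 28.9 FPKM in control and to 32.7 to 33.2 FPKM in pre-AML platelets. Without Nkg7 that sum was 0.150, 0.631 and 0.0656 FPKM in the controls and 7.97, 4.81 and 10.1 FPKM in pre-AML platelets, in the latter mostly from Gzma. The part of this RNA in the values below was not tested. In such bulk samples fewer platelets of a kind and less RNA per platelet cannot be told apart.

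Both complexes were abundant in platelet RNA and dominated by a few genes. The complex IV transcripts added up to means of 4481 ± 449.7 FPKM in the controls and 4203 ± 721 FPKM in pre-AML platelets (SD, n = 3 each). For the ATP synthase transcripts the means were 747 ± 107 FPKM and 657 ± 73.4 FPKM (SD, n = 3 each). Pre-AML 3 had the lowest sum of each complex, at 3372 and 573 FPKM. Its FPKM over all genes listed also added up to the least, 376148 against 508605 to 541784 in the other libraries. The sums of the complexes were not corrected for this. Cox6b1, Cox8a and Cox5a made up 66.8% to 70.4% of the complex IV sum in every library, and Cox6b1 alone 34.9% to 38.1%. Atp5l, Atp5md and Atp5mpl made up 35.7% to 43.3% of the ATP synthase sum. The 11 common complex IV genes ranged from 19.2 FPKM for Cox7c to 1596 FPKM for Cox6b1 in mean level over the 6 libraries.

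**Figure D1:**
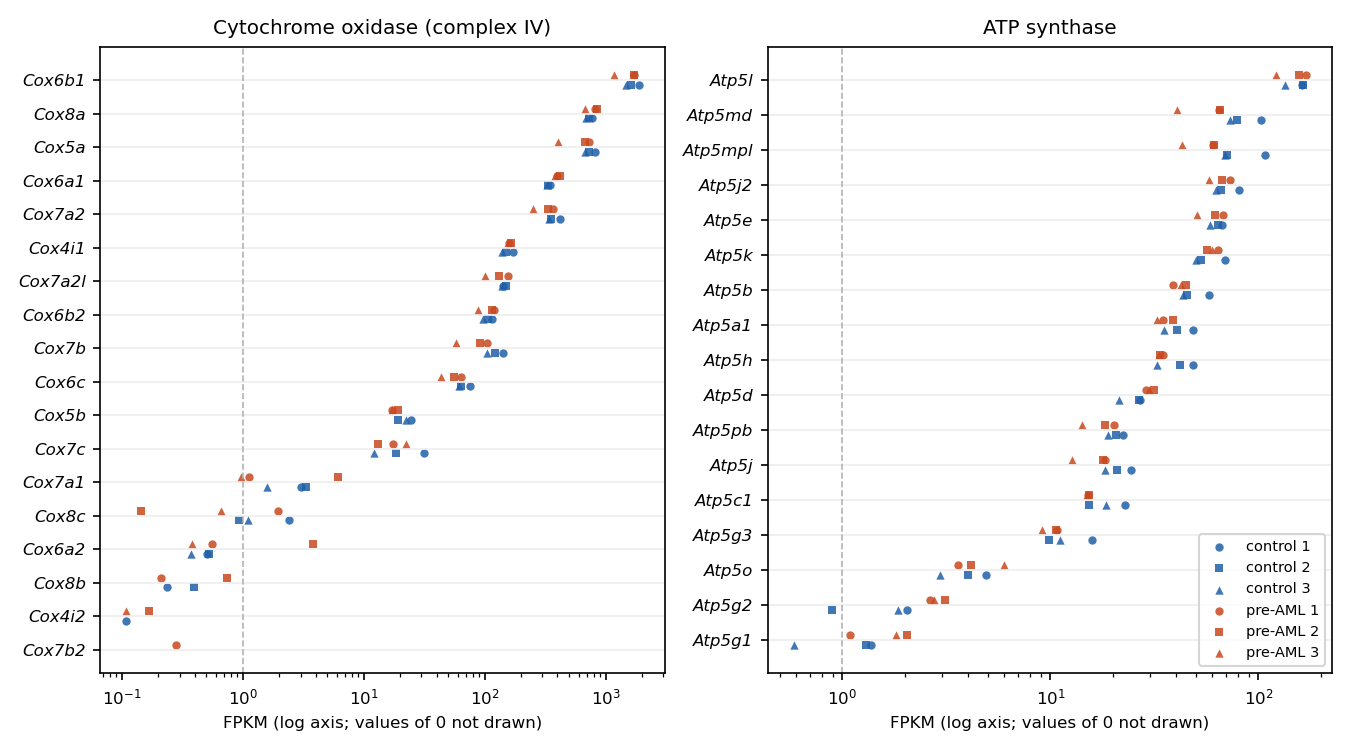
FPKM (log axis) of complex IV and ATP synthase genes in each library. Controls and pre-AML platelets are in different colours, and genes are ordered by mean level within each complex. Cox6b1 stands at the top of complex IV with 1178 to 1891 FPKM, and Atp5g1 and Atp5g2 at the bottom of ATP synthase.

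Of the 35 genes, 32 reached the mean of 1 FPKM required for testing, 15 of complex IV and all 17 of ATP synthase. The 3 others were the isoform genes Cox8b, Cox4i2 and Cox7b2. None of the 32 passed an adjusted p of 0.05 in limma-trend, with adjusted p from 0.522 to 0.977. Over all 4412 genes tested 1 gene passed, which is 0.0227%. At an unadjusted p under 0.05, Atp5g2 was higher in pre-AML platelets and Atp5md, Atp5mpl and Cox7b were lower. The background for such genes was 2.56% of all genes tested in the higher direction and 6.53% in the lower direction, against 3.13% and 9.38% of the members. Without control 1, 0 complex IV members and 1 ATP synthase member had such a p, the latter higher. Of the 4424 genes then tested, 70 were higher and 134 lower. Without pre-AML 3 there were 3 of each complex, 2 higher and 1 lower in complex IV and 1 higher and 2 lower in ATP synthase. Of the 4258 genes then tested, 160 were higher and 222 lower. The 3 control and the 3 pre-AML values did not overlap for 7 members. Cox6a1, Atp5d and Atp5g2 lay wholly higher, where the background was 6.14% of genes, and Cox7b, Atp5md, Atp5mpl and Atp5c1 lay wholly lower, where it was 12.8%. These shares, 9.38% and 12.5% of the members, are near the background.

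The fitted log2 fold change was below 0 for 22 of the 32 members, or 68.8%, against 58.5% of all genes tested. The median log2 fold change was -0.18 for complex IV, with 10 of 15 genes below 0, and -0.20 for ATP synthase, with 12 of 17 genes below 0. The median over all genes was -0.055. Pre-AML 3 carried much of this. The median log2 ratio of the complex IV genes to the control mean was 0.16, -0.019 and -0.13 in control 1, 2 and 3 and 0.045, -0.12 and -0.49 in pre-AML 1, 2 and 3. For ATP synthase it was 0.24, -0.021 and -0.18 in the controls and -0.093, -0.079 and -0.30 in pre-AML platelets. Pre-AML 1 and 2 thus lay within the range of the controls for both complexes, and pre-AML 3 lay below it. All genes tested were also lower in pre-AML 3, with a median of -0.16. Relative to that median, complex IV in pre-AML 3 was at -0.33, below the control range of -0.14 to 0.15. ATP synthase was at -0.14, inside the control range of -0.20 to 0.23. The library size behind FPKM was 1.31 times the recovered reads in pre-AML 3, against 0.983 to 1.01 elsewhere. On the log2(FPKM + 1) scale such an offset shows less in low genes, so the median of all genes need not remove it. Its part in the complex IV value was not tested. Without pre-AML 3 the median log2 fold change was -0.0082 for complex IV and -0.10 for ATP synthase, and without control 1, the highest control, it was -0.073 and -0.042. Relative to the median of all genes, complex IV was at 0.019 without pre-AML 3 and ATP synthase at 0.0094 without control 1.

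**Figure D2:**
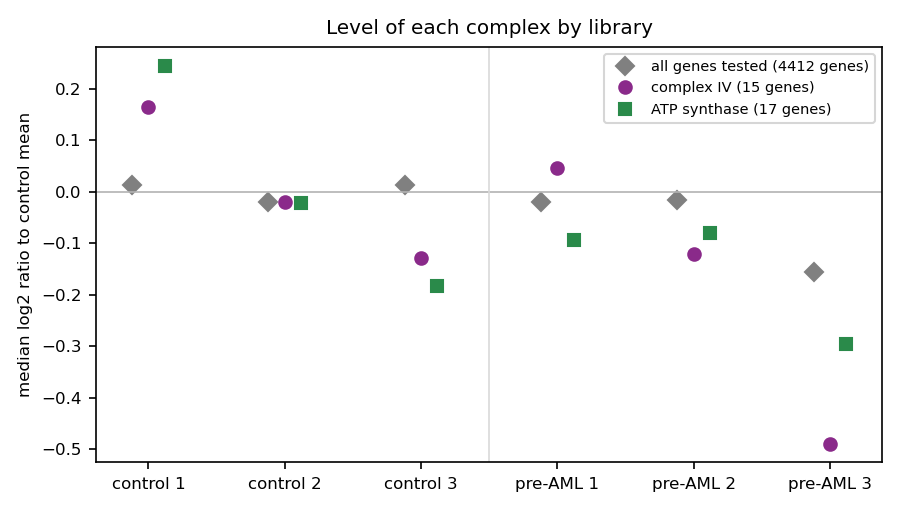
Median log2 ratio to the mean of the 3 controls in each library, over all 4412 genes tested (diamonds), the 15 complex IV genes (circles) and the 17 ATP synthase genes (squares). Control 1 is highest and pre-AML 3 lowest for both complexes, at 0.16 and -0.49 for complex IV and 0.24 and -0.30 for ATP synthase.

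**Figure D3:**
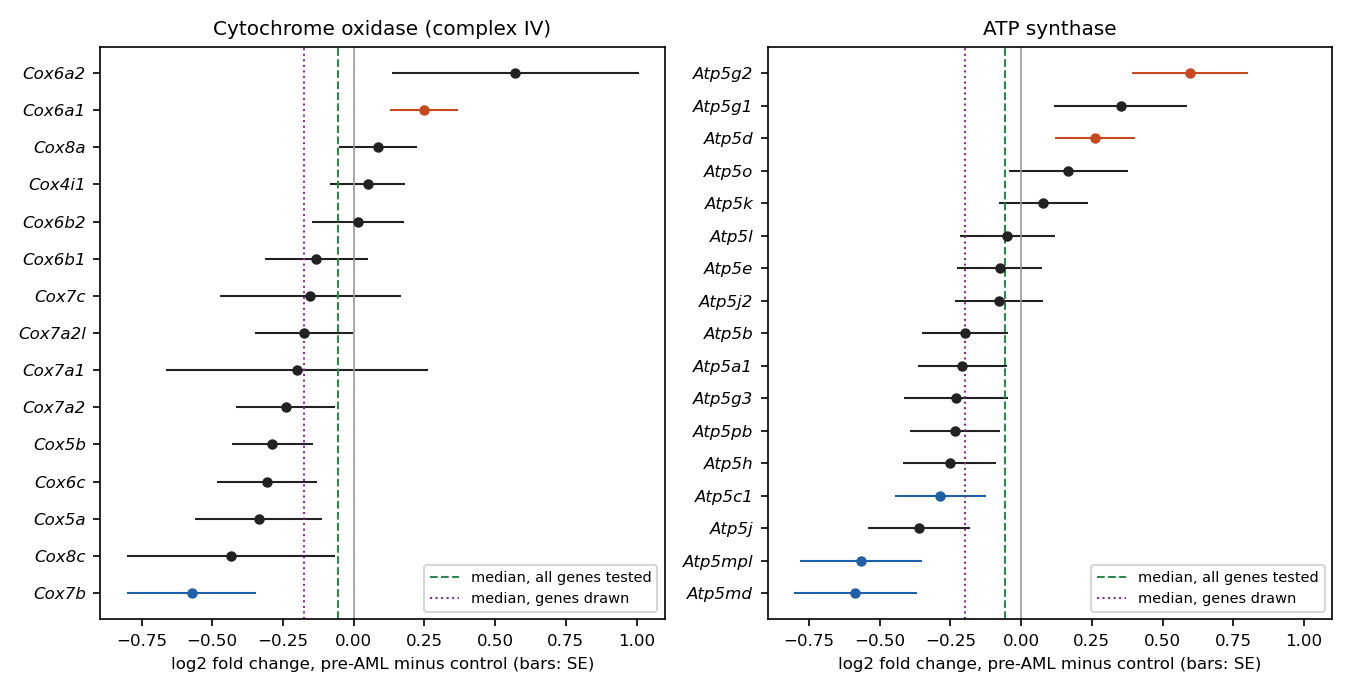
Log2 fold change (pre-AML minus control, from log2(FPKM + 1)) of each of the 32 members tested, with bars of 1 standard error. Atp5g2 lies farthest to the right at 0.60 and Atp5md, Cox7b and Atp5mpl farthest to the left at -0.59, -0.57 and -0.57.

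The most abundant complex IV transcript encodes Cox6b1, the subunit on the intermembrane side that bridges the monomers of the dimer. It had 1891, 1631 and 1465 FPKM in the controls and 1707, 1706 and 1178 FPKM in pre-AML platelets, given here and below in the order of the replicate numbers. Control and pre-AML values overlapped, with a log2 fold change of -0.13 ± 0.18 (SE, adjusted p = 0.775). Cox8a, the small membrane subunit of most tissues, had 772, 726 and 687 FPKM in the controls and 814, 844 and 671 FPKM in pre-AML platelets. Its groups overlapped too, at 0.086 on the log2 scale. Cox5a, a matrix-side subunit, had 824, 727 and 674 FPKM in the controls and 734, 672 and 405 FPKM in pre-AML platelets. Pre-AML 3 lay far below all controls for this gene and pre-AML 2 just below the lowest, and the log2 fold change was -0.34 ± 0.22 (SE, adjusted p = 0.57). Leaving out pre-AML 3 gave -0.072, and -0.026 was left with the trend of change over GC content and length removed.

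Cox6a1 and Cox7b were the complex IV genes whose groups did not overlap, and they lay on opposite sides. Cox6a1, the common isoform of a subunit at the dimer interface, had 346, 334 and 328 FPKM in the controls and 395, 419.9 and 383 FPKM in pre-AML platelets. All 3 pre-AML libraries were above the highest control, with a control mean of 336 ± 9.18 FPKM and a pre-AML mean of 399 ± 18.6 FPKM (SD, n = 3 each). The log2 fold change was 0.25 ± 0.12 (SE, adjusted p = 0.522). Cox7b, a small membrane subunit needed for assembly of the complex, had 143, 122 and 105 FPKM in the controls and 104, 91.2 and 58.1 FPKM in pre-AML platelets. Pre-AML 1 lay just under control 3 and pre-AML 3 lay well below the rest. The log2 fold change was -0.57 ± 0.23 (SE, adjusted p = 0.522), from a control mean of 123 ± 19.2 FPKM and a pre-AML mean of 84.3 ± 23.6 FPKM (SD, n = 3 each). Without pre-AML 3 it was -0.33.

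The other common complex IV subunits overlapped between the groups. Cox4i1, the regulatory subunit that can bind ATP, had a mean level of 157 FPKM over the 6 libraries and a log2 fold change of 0.050. Cox5b, the zinc-binding matrix subunit, had a mean level of 19.96 FPKM over the 6 libraries and a log2 fold change of -0.29. Cox6c, a membrane subunit, had a mean level of 60.7 FPKM over the 6 libraries and a log2 fold change of -0.31. Cox7c, another small membrane subunit, was the lowest of them, with a mean level of 19.2 FPKM over the 6 libraries and a log2 fold change of -0.15. All adjusted p for these 4 genes were between 0.522 and 0.892.

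Several complex IV subunits exist as isoforms encoded by different genes, and platelets mostly held the common one. Cox7a2, the common isoform of subunit 7a, had 418, 355 and 339 FPKM in the controls and 368, 332 and 249 FPKM in pre-AML platelets, with a log2 fold change of -0.24. Its relative Cox7a2l had 142, 152 and 138 FPKM in the controls and 155, 132 and 101 FPKM in pre-AML platelets, with a log2 fold change of -0.18. The ratio of Cox7a2 to Cox7a2l stayed between 2.34 and 2.95. Cox7a1, the heart and skeletal muscle isoform, had 3.03, 3.32 and 1.57 FPKM in the controls and 1.124, 6.07 and 0.961 FPKM in pre-AML platelets, from only 19, 25 and 10 reads in the controls and 8, 49 and 12 reads in pre-AML platelets. Pre-AML 2 was the highest library for this gene and pre-AML 3 the lowest.

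Cox6b2, known as the testis isoform of subunit 6b, was the exception in level. It had 115, 106 and 96.7 FPKM in the controls and 120.3, 116 and 87.3 FPKM in pre-AML platelets, with a log2 fold change of 0.015. The ratio of Cox6b1 to Cox6b2 was 16.4, 15.4 and 15.1 in the controls and 14.2, 14.7 and 13.5 in pre-AML platelets. The groups did not overlap, and an exact two-sided permutation test gave p = 0.1, the smallest p that 3 against 3 libraries allow, or 0.35 after adjustment over the 7 isoform pairs tested. Ratios within a library do not depend on how the libraries were scaled, but they can depend on base composition. The GC content of the longest transcript was 51.0% for Cox6b1 and 55.7% for Cox6b2. With the trend of change over GC content and length removed, their log2 fold changes lay close together, at -0.054 and -0.046. For the other isoform pairs with a test, in subunits 6a, 7a and 8, the exact permutation p was 0.4 to 0.9.

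The remaining isoform genes were at the limit of detection. Cox6a2, the muscle isoform of subunit 6a, had 4, 5 and 3 reads in the controls and 5, 39 and 6 reads in pre-AML platelets, so that pre-AML 2 held most of its reads. Its log2 fold change was 0.57, and without pre-AML 2 the gene was under the mean of 1 FPKM required for testing. Cox8c, a testis isoform, had 13, 6 and 6 reads in the controls and 12, 1 and 7 reads in pre-AML platelets. Cox8b, the muscle isoform of subunit 8, had 1, 2 and 0 reads in the controls and 1, 4 and 0 reads in pre-AML platelets. Cox4i2, an isoform known from lung, had 1, 0 and 0 reads in the controls and 0, 2 and 2 reads in pre-AML platelets, and Cox7b2, a testis isoform, had 0, 0 and 0 reads in the controls and 2, 0 and 0 reads in pre-AML platelets. A count of 0 allows up to 3 reads, which for Cox8b is 0.357 to 0.710 FPKM depending on the library, for Cox4i2 0.163 to 0.324 FPKM and for Cox7b2 0.237 to 0.472 FPKM. These floors and the read counts cover counting error only. Differences between the groups were not detectable at this depth for these 3 genes.

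In the F1 head of ATP synthase, 4 of 5 genes had log2 fold changes below 0, with a median of -0.20. Atp5b, the catalytic beta subunit, had a mean level of 45.5 FPKM over the 6 libraries and a log2 fold change of -0.20. Atp5a1, the alpha subunit that alternates with it, had a mean level of 38.4 FPKM over the 6 libraries and a log2 fold change of -0.21. Atp5e, the epsilon subunit of the central stalk, had a mean level of 61.5 FPKM over the 6 libraries and a log2 fold change of -0.076. The groups overlapped for these 3 genes. Atp5c1, the gamma subunit that forms the turning shaft, had 22.8, 15.3 and 18.6 FPKM in the controls and 15.1, 15.3 and 15.0 FPKM in pre-AML platelets. Pre-AML 1, 2 and 3 lay close together and the gap was small, from 15.29 FPKM in pre-AML 2 to 15.345 FPKM in control 2, with a log2 fold change of -0.29 ± 0.16 (SE, adjusted p = 0.532). Without control 1 it was -0.15. Atp5d, the delta subunit at the foot of the shaft, lay the other way. It had 27.0, 26.6 and 21.3 FPKM in the controls and 28.7, 31.3 and 29.9 FPKM in pre-AML platelets, all pre-AML libraries being above all controls, with a log2 fold change of 0.26 ± 0.14 (SE, adjusted p = 0.526). Without control 3 it was 0.16.

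The peripheral stalk holds the head still against the turning ring. Its 4 genes overlapped between the groups and had a median log2 fold change of -0.24. Atp5j, coupling factor 6, had a mean level of 18.7 FPKM over the 6 libraries and a log2 fold change of -0.36. Atp5h, subunit d, had a mean level of 37.5 FPKM over the 6 libraries and a log2 fold change of -0.25. Atp5pb, subunit b, which anchors the stalk in the membrane, had a mean level of 19.1 FPKM over the 6 libraries and a log2 fold change of -0.23. Atp5o, which ties the stalk to the top of the head and was the only stalk gene above 0, had a mean level of 4.27 FPKM over the 6 libraries and a log2 fold change of 0.17. Adjusted p for these genes ranged from 0.522 to 0.748.

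The membrane subunits around the ring include those that join ATP synthase into dimers. Atp5l, subunit g, was the most abundant ATP synthase transcript, with 162, 164 and 135 FPKM in the controls and 170.0, 157 and 121 FPKM in pre-AML platelets. Its groups overlapped, at -0.049 on the log2 scale. Atp5j2, subunit f, had a mean level of 67.8 FPKM over the 6 libraries and a log2 fold change of -0.077. Atp5k, subunit e, had a mean level of 58.8 FPKM over the 6 libraries and a log2 fold change of 0.079. Their groups overlapped too. Atp5md, a small subunit also known as DAPIT, had 103, 78.6 and 72.8 FPKM in the controls and 64.7, 65.2 and 40.8 FPKM in pre-AML platelets. All pre-AML libraries lay below all controls, with a control mean of 84.9 ± 16.3 FPKM and a pre-AML mean of 56.9 ± 13.9 FPKM (SD, n = 3 each) and a log2 fold change of -0.59 ± 0.22 (SE, adjusted p = 0.522). Atp5mpl, a small proteolipid of the complex, had 107, 70.7 and 68.9 FPKM in the controls and 60.4, 61.1 and 43.0 FPKM in pre-AML platelets. Its groups did not overlap either, and control 1 was far above the other controls. The log2 fold change was -0.57 ± 0.22 (SE, adjusted p = 0.522), from a control mean of 82.4 ± 21.8 FPKM and a pre-AML mean of 54.8 ± 10.3 FPKM (SD, n = 3 each). Without pre-AML 3 it was -0.40 for Atp5mpl and -0.37 for Atp5md, and without control 1 it was -0.36 and -0.44.

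The ring itself is built of the c subunit, and the 3 genes Atp5g1, Atp5g2 and Atp5g3 encode the same mature protein with different import sequences. Atp5g3 was the main source of this transcript, with 15.9, 9.84 and 11.1 FPKM in the controls and 10.7, 10.6 and 9.06 FPKM in pre-AML platelets and overlapping groups, at -0.23 on the log2 scale. Atp5g2 had 2.03, 0.891 and 1.86 FPKM in the controls and 2.65, 3.13 and 2.76 FPKM in pre-AML platelets. The 3 pre-AML libraries were all above the highest control. The log2 fold change was 0.60 ± 0.21 (SE, adjusted p = 0.522), from 40, 21 and 37 reads in the controls and 59, 79 and 108 reads in pre-AML platelets. Without control 2, the lowest library, it was 0.38. Atp5g1 had 1.37, 1.30 and 0.582 FPKM in the controls and 1.09, 2.05 and 1.81 FPKM in pre-AML platelets, with overlapping groups and a log2 fold change of 0.35.

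The 3 genes together summed to 19.3, 12.0 and 13.5 FPKM in the controls and 14.5, 15.8 and 13.6 FPKM in pre-AML platelets, so the sums overlapped. Atp5g3 contributed 82.3%, 81.8% and 81.9% of the sum in the controls and 74.2%, 67.2% and 66.4% in pre-AML platelets. Atp5g2 contributed 10.6%, 7.40% and 13.8% in the controls and 18.3%, 19.8% and 20.3% in pre-AML platelets. Both shares were separate between the groups. The ratio of Atp5g3 to Atp5g2 was 7.80, 11.0 and 5.96 in the controls and 4.05, 3.39 and 3.28 in pre-AML platelets, with exact permutation p = 0.1, the smallest possible, and 0.35 adjusted over the 7 pairs. For Atp5g3 to Atp5g1 the exact permutation p was 0.2, or 0.467 adjusted. The GC content of the longest transcript was 49.3% for Atp5g3, 46.8% for Atp5g1 and 63.3% for Atp5g2, and log2 fold changes in these libraries moved with GC content.

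**Figure D4:**
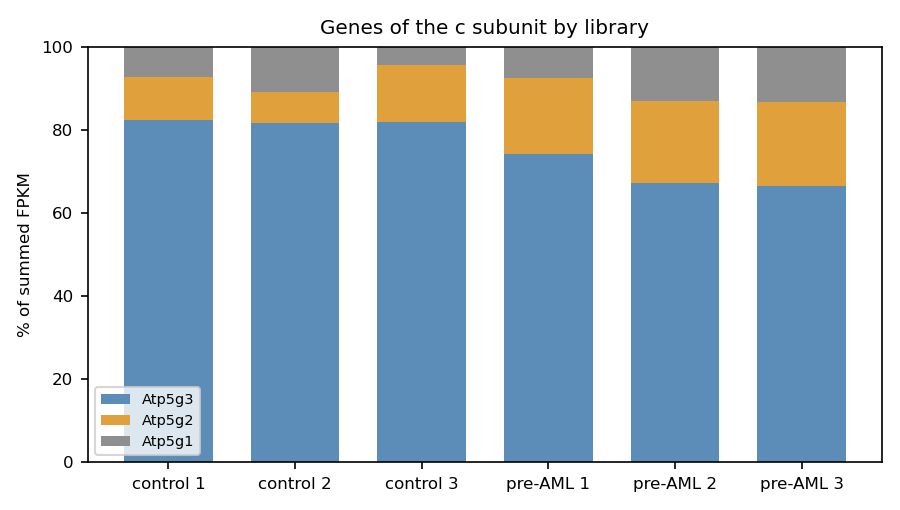
Share of each of the 3 c subunit genes in their summed FPKM (percent, from 0) in each library. The Atp5g3 share is 81.8% to 82.3% in the controls and 66.4% to 74.2% in pre-AML platelets.

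Promoter sequences are shown for the gene with the highest level, Cox6b1, and for 4 genes whose groups did not overlap, 2 on each side. Nuclear genes of respiratory complexes are known targets of the transcription factors NRF1, GABP (also called NRF2) and YY1. RefSeq promoters on GRCm38.p6, reaching from 250 bases before to 50 bases after the start, matched 28 of the 35 genes by symbol. Each is printed 5′ to 3′ on the strand of the gene. Capitals mark matches to GCGC followed after any 2 bases by GCGC for NRF1, CCGGAAG for GABP and AAGATGGCG for YY1, searched on both strands. The Cox6b1 window lies at chr7:30626065-30626364 on the minus strand, Cox6a1 at chr5:115348909-115349208 on the minus strand, Atp5g2 at chr15:102670998-102671297 on the minus strand, Cox7b at chrX:106015450-106015749 on the plus strand and Atp5md at chr19:47090598-47090897 on the minus strand.
Cox6b1: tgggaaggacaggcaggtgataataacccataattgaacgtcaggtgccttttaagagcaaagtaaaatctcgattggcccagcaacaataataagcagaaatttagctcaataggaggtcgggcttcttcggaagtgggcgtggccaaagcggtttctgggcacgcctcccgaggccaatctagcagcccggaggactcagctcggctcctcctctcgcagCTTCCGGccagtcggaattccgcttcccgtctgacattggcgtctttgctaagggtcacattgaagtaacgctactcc
Cox6a1: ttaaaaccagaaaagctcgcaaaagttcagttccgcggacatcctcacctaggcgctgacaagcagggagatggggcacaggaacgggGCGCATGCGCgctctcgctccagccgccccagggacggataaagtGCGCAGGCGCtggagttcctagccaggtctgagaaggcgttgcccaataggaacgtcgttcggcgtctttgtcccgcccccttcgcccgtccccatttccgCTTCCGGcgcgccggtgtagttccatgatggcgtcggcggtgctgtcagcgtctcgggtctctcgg
Atp5g2: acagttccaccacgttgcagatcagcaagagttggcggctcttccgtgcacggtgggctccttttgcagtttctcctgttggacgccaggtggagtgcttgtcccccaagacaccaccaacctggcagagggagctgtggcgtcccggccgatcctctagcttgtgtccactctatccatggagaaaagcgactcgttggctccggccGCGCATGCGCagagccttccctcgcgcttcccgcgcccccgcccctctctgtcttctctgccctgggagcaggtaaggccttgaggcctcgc
Cox7b: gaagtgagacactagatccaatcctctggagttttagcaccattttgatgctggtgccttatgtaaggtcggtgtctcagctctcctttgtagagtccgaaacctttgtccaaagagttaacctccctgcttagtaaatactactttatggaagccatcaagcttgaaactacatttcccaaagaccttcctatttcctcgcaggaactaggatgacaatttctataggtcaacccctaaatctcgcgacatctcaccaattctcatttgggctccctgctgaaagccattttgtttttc
Atp5md: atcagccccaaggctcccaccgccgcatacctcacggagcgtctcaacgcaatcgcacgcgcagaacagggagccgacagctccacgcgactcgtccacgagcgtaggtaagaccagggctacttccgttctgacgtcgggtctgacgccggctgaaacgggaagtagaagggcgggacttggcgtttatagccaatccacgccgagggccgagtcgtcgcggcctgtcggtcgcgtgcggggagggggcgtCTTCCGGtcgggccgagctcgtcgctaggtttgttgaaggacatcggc

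The Cox6b1 and Atp5md windows held 1 GABP match each, the Atp5g2 window held 1 NRF1 match, and the Cox6a1 window held 2 NRF1 matches and 1 GABP match. No match was in the Cox7b window, which says only that these letters are not in these 300 bases. Over the 28 promoters, the NRF1 letters were found in 7 (25.0%), against 7.0% of 27025 promoters in the reference and 15.8% of the 3548 promoters of genes tested. The GABP letters were found in 9 (32.1%), against 9.93% and 21.3%. The YY1 letters were found in 2 (7.14%), against 1.64% and 3.89%. At least 1 of the motifs was in 14 promoters (50.0%), against 16.6% and 35.8%. A match is a string of letters, and occupancy was not measured.

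The log2 fold changes of the members moved with their base composition, as they did for the genes at large. Within each library the deviation of a gene from its mean over all libraries was related to its GC content across genes, with Spearman's rho of -0.30, -0.40 and -0.31 in the controls and -0.046, 0.31 and 0.49 in pre-AML platelets. Across the 32 members the rank correlation of GC content with log2 fold change was 0.49, and across the 4397 genes tested with a GC value it was 0.55. Members are not independent points here, since they come from the same 6 libraries. Cox7b and Atp5md had a GC content of 42.0% and 42.2%, whereas Cox6a1, Atp5g2 and Atp5d had 62.7%, 63.3% and 59.3%. Atp5mpl, at 53.9%, did not follow this order. With the trend over GC content and length removed, the log2 fold change was -0.26 for Cox7b, -0.30 for Atp5md, 0.043 for Cox6a1 and 0.11 for Atp5d, and -0.58 for Atp5mpl and 0.36 for Atp5g2. Members were shorter than other genes, with a median length of 1631 against 3553 bases, and length was hardly related to their change, with a rank correlation of -0.0997.

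**Figure D5:**
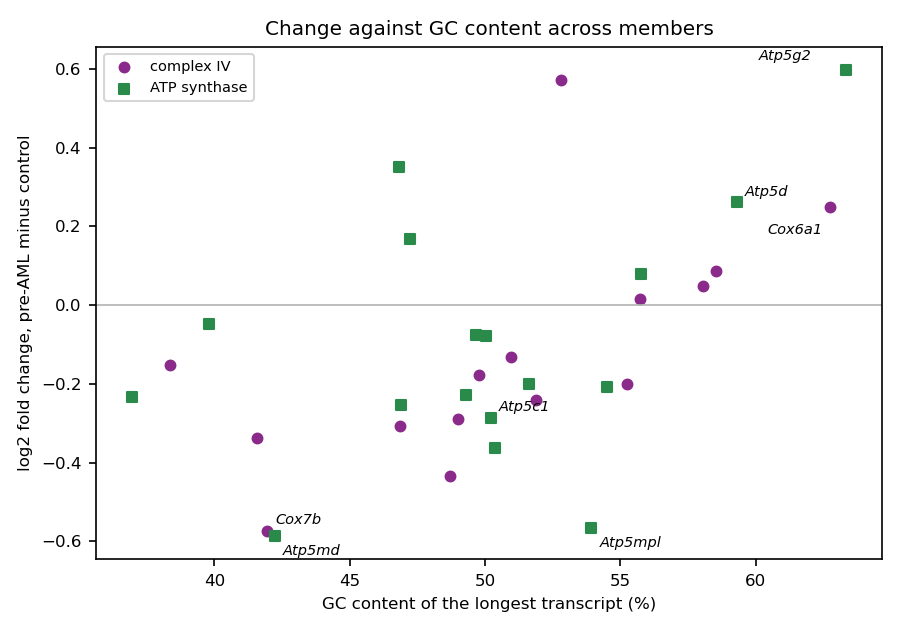
Log2 fold change (pre-AML minus control) of each of the 32 members against the GC content (percent) of its longest transcript, with complex IV genes as circles, ATP synthase genes as squares and the members whose groups did not overlap named. Genes of higher GC content lie higher, with Spearman's rho of 0.49, and Atp5mpl lies low at 53.9%.

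Genes that build or regulate these complexes showed no called change either. Of 28 genes for complex IV assembly and closely tied proteins, 26 were listed and 12 tested, none passed an adjusted or an unadjusted p of 0.05 in limma-trend, and the median log2 fold change was -0.024. Ndufa4, a protein associated with complex IV, had 963, 774 and 741 FPKM in the controls and 761, 722 and 442 FPKM in pre-AML platelets, with overlapping groups and a log2 fold change of -0.39 ± 0.22 (SE, adjusted p = 0.532). Coa5, an assembly factor of complex IV, had 209.6, 212 and 221 FPKM in the controls and 188, 195 and 127 FPKM in pre-AML platelets. The Coa5 groups did not overlap, with a log2 fold change of -0.36 ± 0.18 (SE, adjusted p = 0.522). Without pre-AML 3 the log2 fold change was -0.16 for Coa5 and -0.15 for Ndufa4, and with the GC and length trend removed it was -0.19 and -0.036. Of 7 genes for ATP synthase assembly and regulation, 5 were listed and 3 tested, with none past an adjusted or unadjusted 0.05. Atpif1, the inhibitor of ATP hydrolysis by the synthase, lay near the levels of Cox8a and Cox5a, with 914, 863 and 805 FPKM in the controls and 859, 798 and 622 FPKM in pre-AML platelets and a log2 fold change of -0.19. Fmc1, an assembly factor of the F1 head, had a log2 fold change of 0.059.

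Some values may hold reads of other genes. For 14 members a stretch of at least 100 bases matched another gene at 95% identity or more, and for 13 of them at least 1 of the matching genes was a pseudogene. Among the members with separate groups, Atp5c1 shared 626 bases with Gm8722, Cox7b 241 bases with Gm19503, Atp5g2 127 bases with Gm10175 and Atp5md 178 bases with Gm35857. SMART-Seq2 libraries do not keep the strand, so reads of overlapping genes on opposite strands cannot be told apart. Such overlaps covered 397 exonic bases for Atp5j and Gabpa, 356 for Atp5o and Gm15976 and 346 for Atp5o and D430001F17Rik. They covered 337 for Atp5pb and Wdr77, 269 for Cox5a and Gm26631, 250 for Cox6c and Vps13b and 203 for Atp5pb and Gm42890. Next came 154 for Cox4i1 and Emc8, 133 for Atp5l and Gm30934 and 129 for Atp5a1 and Haus1. The smallest were 70 for Cox6a2 and Itgad, 68 for Atp5d and Cbarp and 16 for Atp5md and Taf5.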

How the data were processed

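Platelet polyA RNA of 3 control and 3 pre-AML samples was amplified with SMART-Seq2 and sequenced. The authors mapped reads to mm10 with STAR, used DESeq2, and deposited FPKM values of 14975 genes, with all value columns mapped to samples by name. The counting program and annotation are not given in the sources used here. Limma-trend (R 4.3.3, limma version 3.58.1) compared the groups on log2(FPKM + 1), with no covariate, for the 4412 genes whose mean reached 1 FPKM. P-values were adjusted over all of them by the Benjamini-Hochberg method. Fold changes on this scale understate those of low genes.

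Gene lengths and GC content came from GENCODE M21 on GRCm38. FPKM times length came out as whole reads, within 0.01, for 85.2% of values and in all libraries for 32 of 35 members; limma-voom on these reads, the count test added after seeing the data, called 0 genes. In pre-AML 3 the library size behind FPKM was 1.31 times the recovered reads, against 0.983 to 1.01 elsewhere. Near-identical copies were sought with blastn 2.17.0, and ratios and figures made with Python 3.11.15.

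Every member is named. Values per library, as FPKM or reads, are given for members with an unadjusted p under 0.05 or separate groups, the 3 highest of each complex, the c subunit genes and isoform pairs. The 2 genes with the smallest p of each assembly or regulation list are named, with values per library except for Fmc1. The 2 highest genes of each marker list are named, with values per library for Lyz2, Hba-a1 and Hbb-bt. Members and lists were chosen with earlier results of these data known. Alternatives covered pseudocount, filter, scaling, quantile normalization, GC and length trend, replicate block and each library left out.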

Additional observations from a re-analysis of the deposited data

How the results depend on the processing

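No member passed an adjusted p of 0.05 under any of the 16 alternatives, and the lowest adjusted p of a member was 0.312. The median log2 fold change of complex IV stayed below 0, between -0.28 and -0.0061, and that of ATP synthase between -0.28 and -0.012. Over all genes, the number with an adjusted p under 0.05 was 1 in limma-trend and 0 with no filter on low values, with at least 1 FPKM in every library, with scaling to the sum of FPKM or to the recovered reads, with the GC and length trend removed, with the replicate block together with that removal, and in limma-voom on recovered reads, and 0 to 2 when 1 library was left out (0 without control 1, control 3 or pre-AML 1, 2 without pre-AML 3). Genes with an unadjusted p under 0.05 were 113 higher and 288 lower in limma-trend. They were 497 higher and 373 lower with no filter, 97 higher and 331 lower with 1 FPKM in every library, 272 higher and 196 lower scaled to the sum of FPKM, 253 higher and 257 lower scaled to the recovered reads, 143 higher and 144 lower with the trend removed, 111 higher and 121 lower with block and removal, 187 higher and 282 lower with quantile normalization, and 94 higher and 333 lower in limma-voom. With 1 library left out they were between 70 higher and 134 lower without control 1 and 206 higher and 450 lower without pre-AML 1. Complex IV members at that p numbered 1, which was lower. With no filter 1 was higher and 1 lower, and with either scaling or quantile normalization 2 were higher and 1 lower. There were 0 with the trend removed, with or without the replicate block. With 1 library left out there were 0 to 3. These were 0 without control 1, 2 lower without pre-AML 1 or 2, and 2 higher and 1 lower without pre-AML 3. ATP synthase members numbered 3, with 1 higher and 2 lower. With either scaling or quantile normalization there were 4, with 2 higher and 2 lower. With 1 FPKM in every library 2 were lower. With the trend removed 1 was higher and 1 lower, and with the block added 2 were lower. With 1 library left out there were 1 to 4, the lowest without control 1. Genes tested numbered 4412 in the main fit and with quantile normalization, 14975 with no filter and 3581 with 1 FPKM in every library. They numbered 4467 and 4446 with the 2 scalings, 4397 with the trend removed and in limma-voom, and 4258 to 4437 with 1 library left out. The cause was not tested.

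Scaling to the sum of FPKM or to the recovered reads moved the median of all genes from -0.055 to 0.084 or 0.052. Relative to it the median was -0.12 for complex IV and -0.14 for ATP synthase, and -0.090 and -0.12 with the first scaling or -0.097 and -0.12 with the second. It was -0.025 and -0.072 with quantile normalization, -0.087 and -0.027 with the trend removed, -0.021 and 0.0094 without control 1, and 0.019 and -0.070 without pre-AML 3, so the sign relative to all genes turned for ATP synthase without control 1 and for complex IV without pre-AML 3. The sign was the same in all alternatives that gave a value for 20 of the 32 members. Under scaling to the sum of FPKM, to the recovered reads and quantile normalization the log2 fold change turned positive, to 0.0392, 0.000113 and 0.0136 for Cox6b1, 0.122, 0.0828 and 0.0703 for Atp5l, 0.0918, 0.0532 and 0.0224 for Atp5j2 and 0.0924, 0.0539 and 0.0175 for Atp5e, and under the first it was 0.012 for Cox7c. With the trend removed it changed sign, with and without the replicate block alike, to 0.162 for Atp5pb, -0.0717 for Cox4i1, 0.27 for Cox7c, -0.022 for Cox8a, 0.248 for Atp5l, -0.0461 for Cox6b2 and 0.0149 for Atp5e. When 1 library was left out, values with both signs ranged from -0.17 to 0.039 for Atp5e, -0.16 to 0.029 for Atp5j2, -0.0071 to 0.21 for Atp5k, -0.15 to 0.10 for Atp5l, -0.0061 to 0.31 for Atp5o, -0.019 to 0.13 for Cox4i1, -0.22 to 0.046 for Cox6b1, -0.071 to 0.16 for Cox6b2, -0.80 to 0.13 for Cox7a1, -0.47 to 0.19 for Cox7c and -0.025 to 0.19 for Fmc1.

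The deviations of same-numbered libraries from their group means correlated at -0.043, -0.12 and -0.17, against -0.096 to 0.17 for libraries of unlike number. With 3 libraries in each group this check cannot show whether the replicate numbers pair the samples. With the replicate block 1 gene had an adjusted p under 0.05, and 1 complex IV and 3 ATP synthase members had an unadjusted p under 0.05, as without it. Limma-voom was chosen after seeing the data. With at least 1 FPKM in every library Cox6a2, Cox7a1, Cox8c, Atp5g1 and Atp5g2 had no value, and Cox6a2 and Cox8c each had none in 1 fit with a library left out. Depth limited the isoform genes with few reads.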

Other observations

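Ratios between members whose groups did not overlap in opposite directions were computed after their values were seen, so no test is given. The first gene of each lay wholly higher and the second wholly lower, so every such ratio must separate the groups. Their separation is therefore no further result. Such ratios with Atp5g2 or Atp5c1 were not computed. The ratio of Cox6a1 to Cox7b, both of complex IV, was 2.42, 2.73 and 3.13 in the controls and 3.81, 4.61 and 6.60 in pre-AML platelets. Within ATP synthase, the ratio of Atp5d to Atp5md was 0.261, 0.338 and 0.293 in the controls and 0.444, 0.481 and 0.732 in pre-AML platelets, and that of Atp5d to Atp5mpl was 0.251, 0.376 and 0.309 against 0.475, 0.513 and 0.695. In each ratio pre-AML 3 was the highest library. The gene named first in each ratio has the higher GC content. With the trend over GC content and length removed, the log2 fold change went from -0.57 to -0.26 for Cox7b and from -0.59 to -0.30 for Atp5md. For Atp5mpl it went from -0.57 to -0.58. The part of GC content in these ratios was not tested.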
